A study of Homo sapiens with 6 samples.

Results

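The outermost stretches of human chromosomes were examined in 4 lists of YAP and TAZ binding regions from H1299 cells. H1299 is an established cell line from a human non-small cell lung carcinoma. All cells had been deprived of serum for 18 hours before their chromatin was sheared and precipitated with an antibody to YAP or to TAZ, and no other treatment or genotype was compared. The antibody groups held 2 libraries each, and 2 further libraries were inputs, which entered only through the peak calling. An end is the first 2 Mb of chromosomes 1 to 12 and 16 to 20, counted from coordinate 0, or the last 2 Mb of chromosomes 1 to 22, counted back from the last peak of any list. This gave 39 ends, 17 on short arms (p) and 22 on long arms (q), and 78 Mb in all. A peak belonged to an end if its midpoint lay there. The ends held 42137 of the 1390121 deposited peaks (3.03%), of which YAP contributed 11111 and 10653 in replicates 1 and 2, and TAZ 10675 and 9698. They were set against the 2 Mb that follow inward, which held 43110 peaks.

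YAP and its paralogue TAZ are coactivators of the Hippo pathway. They carry no DNA-binding domain of their own and reach enhancers and promoters through partners, chiefly the TEAD factors. Chromosome ends are mixed territory. The telomere repeats are followed by subtelomeric blocks that several ends share, which makes short reads there hard to place, and then by single-copy sequence that is very gene-rich on some arms and almost empty of genes on others.

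Only 1 cell line was studied, and the labels do not say that replicates came from separate cultures, so each spread below is the spread between libraries. Peak lists hold no read totals, so depth is unknown and peak number is not an amount of binding. TAZ replicate 2 had the highest coverage of the 4 libraries at 28 of the 39 ends, a count not made for other windows. It was also highest in the 2 Mb that follow inward, with 28.3% against 21.4 to 22.4% in the others. Over chromosomes 1 to 22 outside the ends it was not, with 14.0% against 13.5 to 17.2%. Whether depth or the input used bears on this was not tested. No genome sequence of the lists' build, hg19, was used, so peaks are given by position and no gene is assigned to a peak.

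Peaks covered more of the chromosome ends than of most other sequence. Of the bases in the outer 2 Mb, 25.5% and 26.9% lay in YAP peaks and 26.1% and 34.3% in TAZ peaks. In the next 2 Mb the same libraries gave 22.1%, 22.4%, 21.4% and 28.3%. Each library was thus higher in the outer zone, by a mean log2 ratio of 0.26 ± 0.037 (SD, n = 4 libraries). The exact two-sided sign-flip permutation test over the libraries gave p = 0.13, the smallest value that 4 libraries allow. Outside the ends, chromosomes 1 to 22, with assembly gaps left in their length, were covered to 17.2% and 15.0% by YAP and to 13.5% and 14.0% by TAZ. The ends therefore made up 2.71% of the length of these chromosomes but held 3.96% and 4.76% of the YAP peak bases and 5.11% and 6.38% of the TAZ peak bases. Without peaks of 10 kb or more, an alternative chosen after the data had been seen, the log2 ratio to the next 2 Mb was 0.14. With zones of 1 Mb it was -0.20, the opposite sign. The ratio was 0.11 over the p ends, with a mean coverage of 27.5% against 25.5%, and 0.38 over the q ends, with 28.7% against 22.1%.

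At the ends the peaks were wider than next to them, but not more numerous. The median peak at the ends was 1013 and 1066 bp wide in the YAP lists, and 1056 and 1229 bp in the TAZ lists. Next to the ends it was 824 and 903 bp, and 914 and 1086 bp. The log2 ratio was 0.23 ± 0.051 (SD, n = 4; exact sign-flip permutation p = 0.13), and every library was above 0. Peak number differed little, with 142, 137, 137 and 124 peaks per Mb at the ends and 145, 139, 137 and 131 next to them (log2 ratio -0.034 ± 0.031, SD, n = 4; exact sign-flip permutation p = 0.13). Against all of chromosomes 1 to 22 outside the ends, however, peak number was higher at the ends, by a log2 ratio of 0.21. The ends had 1.08 and 1.15 times the density in the YAP lists and 1.22 and 1.19 times in the TAZ lists. Assembly gaps were left in the length of these chromosomes, and their part in this was not tested. Peaks of 10 kb or more made up 1.60% and 2.37% of the YAP peaks and 1.95% and 4.83% of the TAZ peaks at the ends. In TAZ replicate 2 these few peaks held 37.3% of all peak bases there, against 13.6%, 19.1% and 16.4% in the other libraries.

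**Figure D1:**
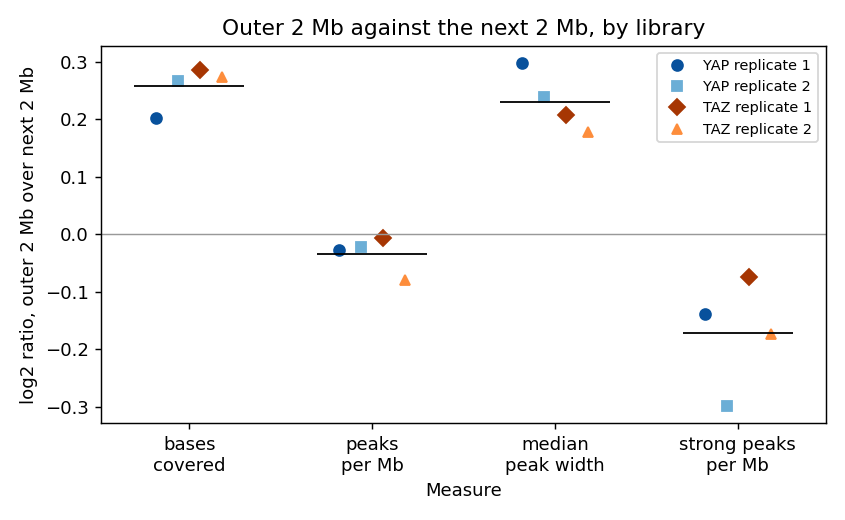
log2 ratio of the outer 2 Mb over the next 2 Mb (vertical axis) for 4 measures, with 1 point per library and a line at the mean of the 4. All libraries lie above 0 for covered bases (0.20 to 0.29) and median peak width, and below 0 for peak number and strong peaks.

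Strong peaks were fewer at the ends in total, but this rested on a few ends. A peak was called strong if its −log10 q was among the 20000 highest of its library (chromosomes 1 to 22 and X). For YAP the ends held 493 and 426 of them and for TAZ 476 and 409, or 6.32, 5.46, 6.10 and 5.24 per Mb. The next 2 Mb held 6.96, 6.72, 6.42 and 5.91 per Mb, a log2 ratio of -0.17 ± 0.094 (SD, n = 4; exact sign-flip permutation p = 0.13). The ratio was -0.40 over the p ends and -0.0053 over the q ends. A large part came from 18p, which had on average 14.25 strong peaks against 55.25 in its next 2 Mb. Without 18p, left out after its values were seen, the ratio was -0.052 (exact sign-flip permutation p = 0.5). It was -0.0078 for the 5000 best-ranked peaks and 0.091 with zones of 1 Mb, and the median over single ends was 0. Against all of chromosomes 1 to 22 outside the ends, at 6.93 to 6.96 per Mb, the libraries had 0.754 to 0.909 times the density. The authors' fold over input did not separate the zones: its median was 3.10, 3.08, 3.12 and 2.98 at the ends and 3.11, 3.10, 3.11 and 2.98 next to them (difference -0.0042 ± 0.012, SD, n = 4; exact sign-flip permutation p = 0.5).

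**Figure D2:**
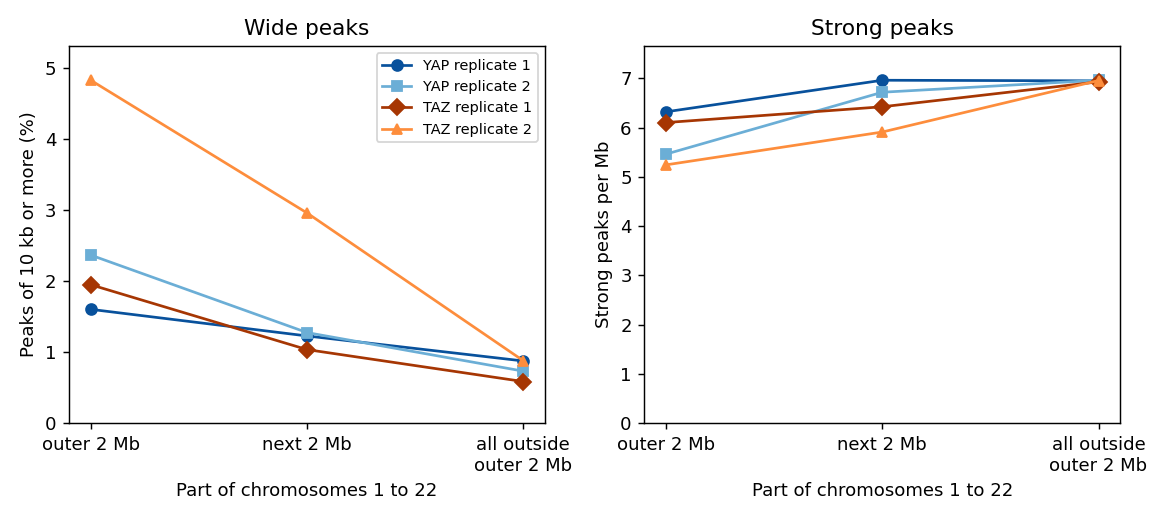
Share of peaks that are 10 kb or wider (left, in %) and strong peaks per Mb (right) in the outer 2 Mb, the next 2 Mb and all of chromosomes 1 to 22 outside the outer 2 Mb, with 1 line per library. Wide peaks were most frequent at the ends, up to 4.83% in TAZ replicate 2, where strong peaks were least dense.

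Coverage did not rise steadily toward the tip. In the outermost 0.25 Mb it was 14.2% and 14.0% with YAP and 12.9% and 16.4% with TAZ, the lowest of the 250 kb steps in the outer 2 Mb. From 0.25 to 0.5 Mb it was 27.1%, 27.7%, 26.2% and 33.8%, and it stayed near that level up to 2 Mb. Just inside the border, from 1.75 to 2 Mb, it was 25.7%, 27.2%, 27.1% and 35.0%, and just outside, from 2 to 2.25 Mb, 22.4%, 24.6%, 23.2% and 32.9%. Between 6 and 8 Mb it had come down to 20.2%, 18.4%, 17.0% and 19.5%. The low tip was seen on both kinds of arm. In YAP replicate 1 the first 0.25 Mb was covered to 11.0% on p ends and 16.7% on q ends, and in TAZ replicate 2 to 13.3% and 18.7%. The p ends are counted from coordinate 0 and not from the first peak, which began at 2283 on chromosome 17 and at 175325 on chromosome 11 in YAP replicate 1. Gaps in the assembly were not analysed here. Over the 39 ends, 21 had less coverage in the first 0.5 Mb than in the second in all 4 libraries, and 7 had more. No share over other adjacent 0.5 Mb windows was computed, so these counts are a description only.

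With zones of 1 Mb, coverage of the outer zone was lower than in the next 1 Mb (log2 ratio -0.20) and so was median peak width (-0.062). Strong peaks were not low at the tip. Their density in the outermost 0.25 Mb was 7.69 and 7.18 per Mb with YAP and 7.18 and 7.59 with TAZ, above that of the whole outer zone in every library.

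**Figure D3:**
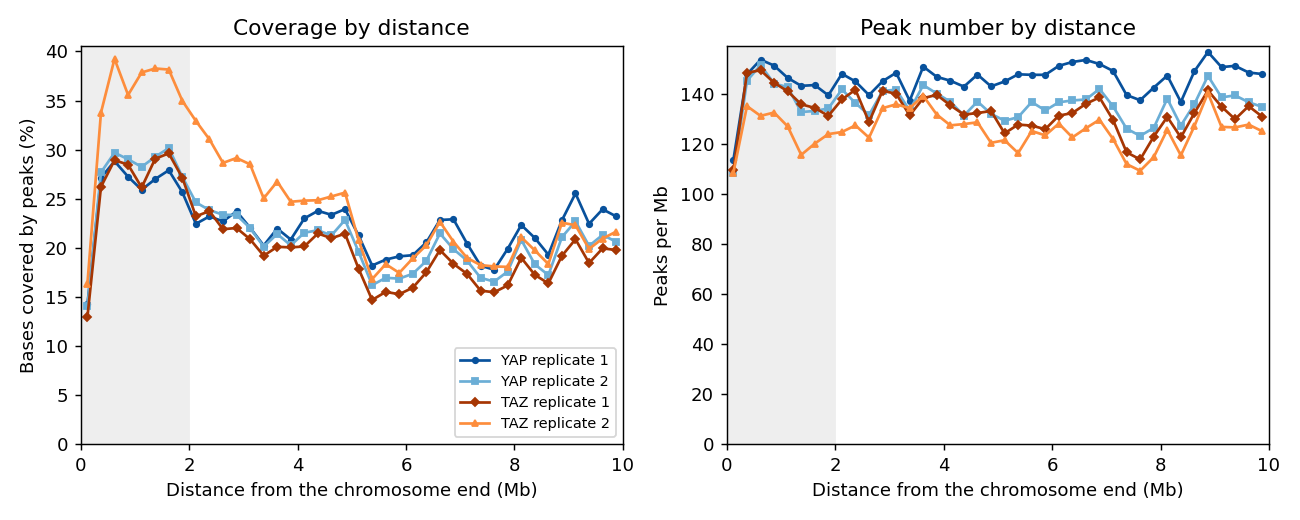
Bases covered by peaks (left, in %) and peaks per Mb (right) against distance from the chromosome end in 250 kb steps, averaged over 39 ends, with 1 line per library and the outer 2 Mb shaded. Coverage starts at 12.9 to 16.4%, is 26.2 to 33.8% in the second step and falls beyond 2 Mb, most steeply in TAZ replicate 2.

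Single ends differed far more than the zones did. Mean coverage over the 4 libraries ran from 0.527% at 3p to 73.0% at 19p, a 138-fold range, with 10 ends under 10% and 17 at 30% or more. The libraries ordered the ends alike: the Spearman correlation between any 2 libraries lay between 0.904 and 0.997 across the 39 ends, which are not independent and share the cell line and perhaps an input. Coverage went with median peak width (Spearman correlation 0.965) more than with peak number (0.668). Both relations are partly built in, since coverage is the summed width of the peaks over a fixed length. Coverage also went with that of the next 2 Mb (0.836). The 10 most covered ends held 49.7% of the covered bases.

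**Figure D4:**
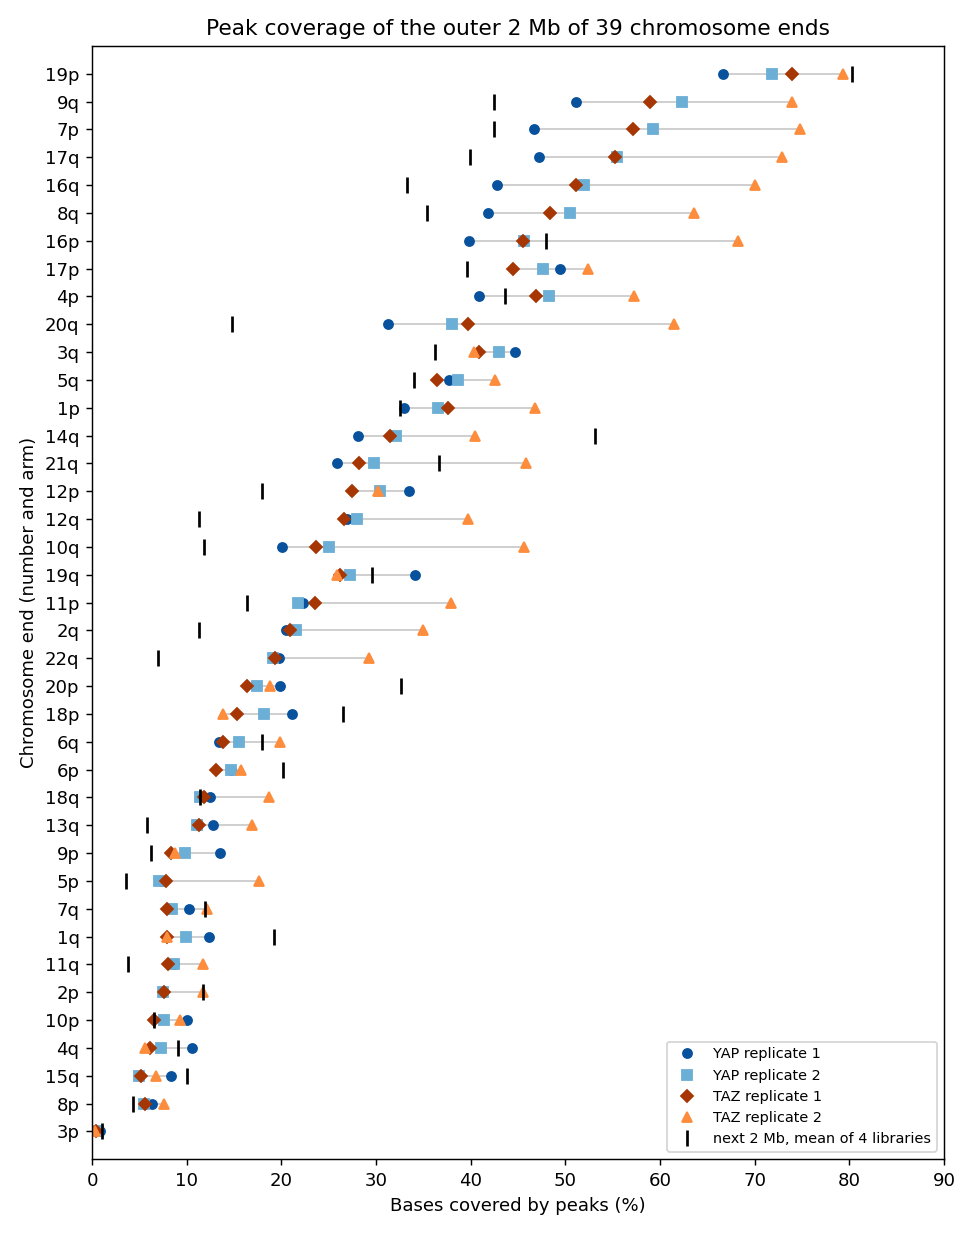
Bases covered by peaks (horizontal axis, in %) in the outer 2 Mb of each of 39 chromosome ends, with 1 marker per library, a grey line from the lowest to the highest, and a black tick for the mean of the next 2 Mb. Ends are ordered by mean coverage, from 3p (0.527%) to 19p (73.0%), and TAZ replicate 2 is the highest library at most of the upper ends.

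At the top stood 19p, with 66.7% and 71.9% of its outer 2 Mb in YAP peaks and 74.0% and 79.4% in TAZ peaks. The TAZ libraries lay above the YAP libraries there. In RefSeq (GRCh38.p14, used for gene order and names only), its outermost genes include OR4F17, an olfactory receptor, and PLPP2, a lipid phosphatase. Next came 9q, where the values were 51.1% and 62.3% for YAP and 59.0% and 73.9% for TAZ. CACNA1B, which encodes a neuronal calcium channel, and EHMT1, a histone H3 lysine methyltransferase, lie nearest its tip. The end of 7p, where the growth factor gene PDGFA lies, was covered to 46.7% and 59.2% by YAP and to 57.2% and 74.8% by TAZ. For 17q the libraries gave 47.2% and 55.4%, and 55.2% and 72.9%; its genes include TBCD, a tubulin folding cofactor. At 16q, where TUBB3 (a neuronal tubulin) and MC1R (the melanocortin receptor of pigment cells) lie, they gave 42.8% and 52.0%, and 51.1% and 70.0%. At 7p, 9q, 16q and 17q the antibodies overlapped, with YAP replicate 1 lowest and TAZ replicate 2 highest.

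The end of 3p was almost free of peaks, with 0.867% and 0.596% for YAP and 0.357% and 0.289% for TAZ. Its outermost genes are CHL1, CNTN6 and CNTN4, which encode neural cell adhesion proteins. Coverage was also low at 8p, with 6.28% and 5.53% for YAP and 5.56% and 7.58% for TAZ. At 15q, whose tip carries the olfactory receptor genes OR4F15 and OR4F6, it was 8.35% and 4.93%, and 5.15% and 6.72%. At 4q, where DUX4, the transcription factor gene of the D4Z4 repeat, lies, it was 10.6% and 7.24%, and 6.11% and 5.63%. The fifth lowest was 10p, with 9.99% and 7.58%, and 6.53% and 9.26%; ZMYND11, a histone reader, is near its tip. At 3p and 4q both YAP libraries were above both TAZ libraries, and at 8p, 15q and 10p they overlapped. Across the 37 ends with gene order from RefSeq, coverage and the median length of the 10 outermost protein-coding genes had a Spearman correlation of -0.443. With the promoter GC of these genes the correlation was 0.218, and with their promoter CG 0.0681. These genes may reach beyond 2 Mb, and the relations are descriptions only.

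The 2 ends of one chromosome could be very unlike. Of the 17 chromosomes with both ends, the q end was more covered in all 4 libraries on 8 and the p end on 5. By the mean of the log2 ratios of the libraries, the ends of chromosome 3 were 87.9-fold apart (0.527% at 3p and 42.2% at 3q), on chromosome 8 they were 8.17-fold apart (6.24% and 51.1%) and on chromosome 4 they were 6.70-fold apart (48.3% at 4p and 7.39% at 4q). On chromosome 12 they were nearly equal, at 30.4% and 30.3%, with the libraries split over which was higher. The fullest of all 2 Mb windows was an end on 3 of the 22 chromosomes, 4, 8 and 16. Ends were 39 of the 1285 windows, and this count was not tested.

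Set against their own inner neighbour, 22 of the 39 ends (56.4%) were more covered in all 4 libraries, 13 (33.3%) were less covered in all 4 and 4 were mixed. Among 1240 adjacent pairs of 2 Mb windows, ends included and tiled to the chromosome midpoint, the window nearer the end was higher in all 4 libraries in 45.2% and lower in all 4 in 43.5%. The difference between the ends and these pairs was not tested. In all 4 libraries 12 ends were higher with zones of 1 Mb, and 8 when only peaks of fold 4 or more counted. For those settings no share over all adjacent windows was computed, so these counts have no background. Against the median window of their chromosome, 24 ends (61.5%) were higher in all 4 libraries, and 45.2% of all 1285 windows were.

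The rise toward the tip was steepest at 22q. Its outer 2 Mb was covered to 19.7% and 19.1% by YAP and to 19.3% and 29.2% by TAZ, and its next 2 Mb to 7.49% and 5.45%, and 6.08% and 8.63%. The mean log2 ratio was 1.66 ± 0.18 (SD, n = 4 libraries). ACR, which encodes a sperm protease, and SHANK3, a synaptic scaffold gene, lie there. At 20q the ratio was 1.52 ± 0.14, with 31.3%, 38.1%, 39.7% and 61.5% outside and 12.4%, 12.6%, 12.8% and 21.3% inside (YAP 1 and 2, then TAZ 1 and 2). At 12q, whose tip holds a cluster of zinc finger genes such as ZNF268 and ZNF10, it was 1.41 ± 0.24. The strongest fall toward the tip was at 1q, with 12.3%, 9.91%, 7.92% and 7.92% outside against 22.8%, 19.4%, 17.3% and 17.2% inside, a log2 ratio of -1.03 ± 0.12. Olfactory receptor genes of the OR2T group lie near that tip. The ratio was -0.98 ± 0.30 at 3p and -0.85 ± 0.042 at 20p, where the beta-defensin genes DEFB125 to DEFB129 are outermost. At 3p both zones were nearly free of peaks, with mean coverage of 0.527% outside and 1.03% inside, against 18.1% and 32.6% at 20p. At these 6 ends all 4 libraries had the same sign.

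**Figure D5:**
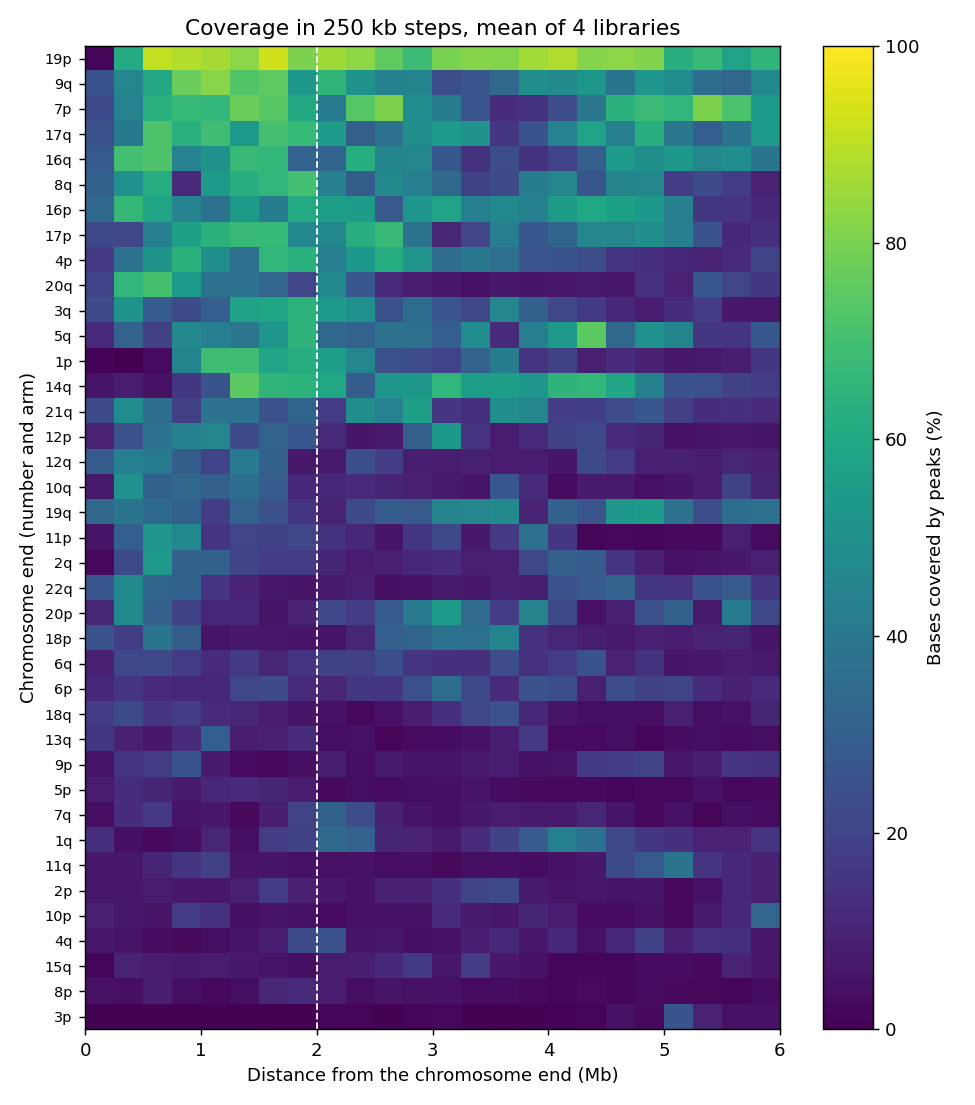
Bases covered by peaks (colour, 0 to 100%, mean of 4 libraries) in 250 kb steps from the chromosome end (horizontal axis, in Mb) for 39 ends (vertical axis, ordered by the mean coverage of the outer 2 Mb). The dashed line marks 2 Mb, and the ends from 19p to 3p differ more than the zones on either side of the line.

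Ends with more coverage tended to hold more strong peaks (Spearman correlation 0.565 across the 39 ends, as a description), with exceptions. At 19p, the most covered end, a library had on average 5.75 strong peaks, and at 17p, with 48.5% coverage, it had 4.75. At 6p and 6q, with coverage of only 14.5% and 15.6%, the averages were 34 and 33.25. The 6p tip carries DUSP22, a phosphatase gene, IRF4, a lymphoid transcription factor gene, and the forkhead genes FOXQ1, FOXF2 and FOXC1. The 7 ends with the most strong peaks, picked after their values were seen, were 6p, 6q, 3q, 5q, 4p, 12p and 9q. They held 49.5% of the strong peaks of all ends and 22.9% of the covered bases. At 9 ends the average was under 3.

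Strong peaks sharing 1 bp or more were joined into regions across the 4 libraries. Of the 1339 merged regions at the ends, 30 (2.24%) were strong in all 4 libraries, against 25 of 1543 (1.62%) in the next 2 Mb and 1.28% of all 61788. They lay on 14 ends, with 6 on 4p and 4 on 6q. Both YAP libraries were strong in 121 of the 1339 regions at the ends and in 114 of the 1543 in the next 2 Mb. Both TAZ libraries were strong in 90 and 101 of them. The totals differ and no share over all merged regions was computed for these counts, so they are a description only. The regions strong in all 4 were wider (median 2689 bp) than the merged regions there as a whole (660 bp), and a wider region meets more peaks by construction.

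Ranked by the sum of their ranks in the 4 libraries, the first region lay at chr10:134823043-134826544, 700 kb from the end of 10q. YAP replicates 1 and 2 gave a fold of 6.69 and 4.96 there, TAZ replicates 5.98 and 5.50. A second region of 10q, at chr10:134922860-134927416, had 5.66 and 4.91, and 5.12 and 3.81. The region at chr3:196624723-196625958 on 3q ranked second with a low fold, which was 2.50 and 2.90 with the YAP antibody against 2.88 and 3.09 with the TAZ antibody. Its −log10 q was 12.7, 18.0, 19.3 and 14.8, the highest value at any end in YAP replicate 2 and in TAZ replicate 1. On 1p the region at chr1:723463-727215 had 4.33 and 4.22, and 4.19 and 3.90. On 12p the region at chr12:91990-95733, 93.9 kb from the start of the chromosome, had 3.44 and 3.44, and 4.20 and 4.26. The other five of the first 10 lay on 12p, 4p (a pair), 6p and 11p, with folds from 3.17 to 5.84. None was screened against regions known to give false peaks.

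The widest peaks of the ends lay on 19p and 9q. On 19p they were chr19:1677324-1733922 in YAP replicate 1 (56599 bp), chr19:573976-618766 in YAP replicate 2 (44791 bp) and chr19:1657844-1719633 in TAZ replicate 1 (61790 bp). In TAZ replicate 2 the widest, chr9:139829834-139965764, spanned 135931 bp of 9q. The same stretch held 27 peaks of YAP replicate 1, 11 of YAP replicate 2 and 19 of TAZ replicate 1, which covered 66.1%, 88.2% and 82.4% of it. So most of this stretch was covered in each library, and it was split into more peaks in 3 of them. The bases of the stretch common to all libraries were not counted. The highest fold at the ends was 6.69 in YAP replicate 1 (the 10q region above) and 7.24 in YAP replicate 2, at chr7:157943877-157944399 on 7q. It was 8.06 in TAZ replicate 1, at chr12:272135-272621 on 12p, and 5.80 in TAZ replicate 2, at chr18:77772803-77773641 on 18q. The 12p peak had a fold of 4.87, 3.21 and 3.30 in the other libraries, and the 18q peak 2.49, 3.68 and 4.33.

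The outermost peak of an end was the same in all 4 libraries, with at least 1 base in common, at 11 of 17 p ends and 8 of 22 q ends. On 1p it began at 9954 and 9935 for YAP and 9887 and 9940 for TAZ, with a fold of 3.86 and 4.42, and 4.86 and 3.46. On 10q the last peak of the 4 libraries ended within 4 bp, with folds of 3.41, 3.34, 3.59 and 3.81. On 4q the last peak had a fold of 3.87 and 4.12, and 3.10 and 3.59. Over the 19 ends with a common outermost peak, its median −log10 q was 6.27, 4.04, 3.89 and 3.00. None of the 19 was strong in all 4 libraries. No share of peaks common to the 4 libraries was computed elsewhere, so these counts are a description only. Whether edges of assembly gaps or sequence that several ends share bear on these peaks was not tested.

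The log2 ratio of the outer over the next 2 Mb averaged 0.23 ± 0.045 over the YAP libraries and 0.28 ± 0.0081 over the TAZ libraries (SD, n = 2 each). The difference of -0.045 had an exact two-sided permutation p of 0.33, the smallest value that 2 libraries against 2 allow. It changed sign to 0.063 without peaks of 10 kb or more and to 0.057 when only peaks of fold 4 or more were kept. Against the rest of chromosomes 1 to 22, the ends were 1.48 and 1.80 times as covered by YAP and 1.94 and 2.45 times by TAZ. Both TAZ libraries were thus above both YAP libraries, with a log2 difference of -0.42 (exact two-sided permutation p = 0.33).

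In most 2 Mb windows YAP peaks covered more than TAZ peaks. Both YAP libraries were above both TAZ libraries at 8 of 39 ends (20.5%), against 76% of all 1285 windows. Those ends were 1q, 3p, 3q, 4q, 9p, 12p, 18p and 19q. Both TAZ libraries were above both YAP libraries at 6 ends (15.4%), namely 1p, 2p, 5p, 11p, 19p and 20q, against 1.25% of all windows. At 5p, whose tip carries SDHA (a subunit of succinate dehydrogenase), the excess was mainly that of TAZ replicate 2, with 17.6% against 7.76% in TAZ replicate 1 and 7.39% and 7.09% for YAP. The same held at 2p, 1p, 11p and 20q, where TAZ replicate 1 had 7.63%, 37.6%, 23.5% and 39.7%, the higher YAP library 7.53%, 36.6%, 22.3% and 38.1%, and TAZ replicate 2 had 11.7%, 46.8%, 37.9% and 61.5%. The next 2 Mb resembled the ends, with YAP above TAZ in 8 of 39 (20.5%) and TAZ above YAP in 3 (7.69%). Of the 1104 windows of low coverage, under 30% and with the ends included, 82.9% had YAP above TAZ and 0.725% had TAZ above YAP. Of the 22 ends under 30%, YAP was above TAZ in 6 (27.3%) and TAZ above YAP in 3 (13.6%). Of the 164 windows outside the ends with a mean coverage of 30% or more, YAP was above TAZ in 59 (36.0%) and TAZ above YAP in 5 (3.05%). Of the 17 ends at that coverage the numbers were 2 (11.8%) and 3 (17.6%). List length, which was greater for YAP, moves with these counts, and its part was not tested.

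By the bases of all peaks, libraries overlapped slightly more at the ends, but not by strong peaks or by peaks matched one to one. The Jaccard index, the bases that a pair of libraries both cover over the bases that either covers, was between 0.485 and 0.600 for the 6 pairs of libraries at the ends and between 0.461 and 0.584 in the next 2 Mb. It was higher at the ends in each pair. The highest was between the YAP libraries (0.600), while the TAZ libraries, at 0.538, were below 3 of the 4 mixed pairs (0.564, 0.552, 0.551 and 0.485). By this index the libraries did not group by antibody. Unequal coverage of a pair limits the index, and the TAZ libraries covered 26.1% and 34.3% of the ends. It therefore does not settle how the libraries group. Bases in peaks of all 4 libraries made up 14.0% of the ends and 11.0% of the next 2 Mb. Of the bases in any peak at the ends, 3.17% lay in both YAP lists and neither TAZ list, and 5.76% in both TAZ lists and neither YAP list. In the next 2 Mb these shares were 3.62% and 5.36%. TAZ replicate 2 had the most bases of its own, 20.4% of its covered bases at the ends, against 5.80 to 7.68% in the others. Coverage was also higher at the ends, and its part in the Jaccard index was not tested. With strong peaks alone, the index differed by -0.00082 between the zones. The mean share of peaks with a reciprocal overlap of 50% was 40.7% at the ends and 42.4% in the next 2 Mb.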

How the data were processed

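Broad peak lists of 4 chromatin immunoprecipitation libraries were used as deposited, 1 per library. The submitters' processing notes name MACS2, SAMtools, Bowtie2 and cutadapt, and build hg19; versions and settings are not given in the sources used here. Peak names inside the deposited lists name 1 common input, whereas the list names point to another for each replicate, so the input is unsettled. The deposited fold is the authors' ratio of ChIP over input, and −log10 q and −log10 p stand as deposited from the peak caller. The deposited score, 10 times the −log10 q, was not used.

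Python 3.11.15, numpy 2.4.6 and pandas 2.3.3 were used. Coverage is the summed width of member peaks over the zone length. Assembly gaps were left in all lengths. Windows of 2 Mb were counted from each end to the middle of the chromosome, and 26 windows without a peak in some library were left out. Coordinates are hg19 and count from 1. Zone contrasts used exact sign-flip permutation tests over libraries, antibodies exact permutation tests. The zone statistics were tested on simulated data. Ends named in the text were the 5 most and 5 least covered and those with the 3 highest and 3 lowest ratios to the next 2 Mb; the named regions were those of lowest rank sum, the widest and those of highest fold. Other ends were named after their values were seen. Members and lists were chosen with earlier results of these data known. RefSeq gene names follow GRCh38.p14 and gave gene order only; genes with a promoter entry in that build were used, and chromosome 8 genes were not. Alternatives were other zone lengths, thresholds, list lengths, subsets of ends, comparators and the omission of each library.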

Additional observations from a re-analysis of the deposited data

Results flagged for a closer look

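At 16p and 19q the YAP libraries moved one way and the TAZ libraries the other when the outer 2 Mb was set against the next 2 Mb; this difference was not tested. At 16p the log2 coverage ratio was -0.14 and -0.014 with YAP against 0.045 and 0.25 with TAZ, a YAP minus TAZ difference of -0.22. At 19q it was 0.022 and 0.042 with YAP against -0.021 and -0.29 with TAZ, a difference of 0.19. In both cases TAZ replicate 2 was farthest from 0 on the TAZ side, and TAZ replicate 1 was close to 0.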

How the results depend on the processing

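The higher coverage of the ends kept its sign in 16 of 17 alternatives, and wider peaks in 13 of 14. The lower number of strong peaks did not hold in size: it was -0.0078 with 5000 strong peaks, -0.0053 over q ends, -0.40 over p ends, -0.052 without 18p and 0 for the median over ends. Coverage was 0.11 over p ends, 0.38 over q ends, 0.40 with zones of 4 Mb and 0.13 with a fold of at least 4, and width was 0.40 with zones of 4 Mb. With zones of 1 Mb coverage gave -0.20, width -0.062, strong peaks 0.091, peak number 0.022, fold 0.011, the YAP minus TAZ difference 0.074 and the count of ends higher in all libraries 12. That count was 8 with a fold of at least 4, 9 among p ends and 13 among q ends, which have fewer ends to count. The share over all adjacent windows was not computed for these alternatives. Peak number changed sign to 0.043 with zones of 4 Mb, to 0.0024 with q ends and to 0.21 against the rest of the chromosomes. Fold changed sign to 0.014 with q ends. The YAP minus TAZ difference changed sign to 0.057 with a fold of at least 4, to 0.031 for the median over ends and to 0.063 without peaks of 10 kb or more. The gain in overlap of 0.032 changed sign with strong peaks (-0.00082) and, as the share of peaks with a reciprocal overlap of 50%, to -1.66 percentage points. Except where a smaller set of ends explains a count, the cause was not tested. Leaving out 1 library in turn gave 0.25 to 0.28 for coverage, 0.21 to 0.25 for width, -0.20 to -0.13 for strong peaks, -0.043 to -0.019 for peak number, -0.0091 to -3.3e-06 for fold, 0.025 to 0.045 for overlap, -0.077 to -0.013 for YAP minus TAZ and 22 to 23 ends. Samples share only a replicate number. With it as a replicate block the YAP minus TAZ difference was still -0.045 (exact sign-flip permutation p = 0.5, the smallest possible with 2 pairs). Depth is unknown and limits the peak counts.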
